A study of Mus musculus with 8 samples.

Results

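Tetraspanin mRNAs were measured in sorted pre-BII cells (B220+ CD25+) from wild type mice and mice lacking Aiolos, OBF-1 or both. The set described here holds 8 genes: Tspan2, which was picked for its higher level without both factors on these same arrays, and Cd9, Cd37, Cd53, Cd63, Cd81, Cd82 and Cd151, which were taken as family members known from B cells. Every probe set annotated to these genes was used, 16 of the 22690 on the array, and they cover 7 of the 8 genes, since none was matched to Cd63, which was not analysed here. Tspan2 had 3 probe sets, Cd151 had 6, Cd37 and Cd82 had 2 each, and Cd9, Cd53 and Cd81 had 1 each. None of the 16 was annotated to a second gene.

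The arrays were MOE430A GeneChips, with 2 arrays for each of 4 genotypes: wild type (WT), OBF-1-/-, Aiolos-/- (the single mutants) and Aiolos-/-/OBF-1-/- (double-deficient, marked double in the plots). All mice were Bl6 and 7 weeks old by their labels. Each array held RNA of cells sorted from its own pool of 8 mice as the methods describe it, whereas the labels call each sample bone marrow and name a single mouse for each mutant. P-values therefore measure the spread between arrays, and what 1 array stands for rests on the methods. Both deletions were carried by the whole animal, so the cells around the sorted B cells lacked the same factors. The values are intensities on a linear scale, and the array medians lay between 66.8 and 69.4 units. Pou2af1, the gene of OBF-1, checked the labels, with 2761 and 2678 units in WT, 2434 and 2842 in Aiolos-/- cells, 241.1 and 236.0 in OBF-1-/- cells and 170.1 and 272.9 in double-deficient cells. No probe set was matched to Ikzf3, the gene of Aiolos. Of the 8 markers of pre-B cells, 7 were measured and all 7 reached 100 units in every genotype, Rag1 and Il2ra (CD25) among them. Fluidics station 2 processed the WT and OBF-1-/- arrays, and station 1 the Aiolos-/- and double-deficient ones. OBF-1-/- against WT and double-deficient against Aiolos-/- are therefore comparisons within a station. In the other comparisons of 2 genotypes, station and genotype cannot be told apart.

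Tetraspanins are small proteins that cross the plasma membrane several times and gather integrins, immunoglobulin superfamily proteins and receptors into patches of the membrane. On B cells CD81 travels with the complement receptor CD21. CD37 and CD53 are found on leukocytes, CD9 marks marginal zone B cells, B-1 cells and plasma cells among the B lineage, CD82 was first known as a suppressor of metastasis, CD151 binds the laminin receptors among the integrins, and CD63 lies mainly in late endosomes and lysosomes. TSPAN2 has been studied mostly in oligodendrocytes. OBF-1 is brought to DNA by Oct factors on octamer motifs, and Aiolos, a zinc finger protein, belongs to the Ikaros family.

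The stretches upstream of Tspan2, Cd9 and Cd81, the genes on which the results turn, are shown because both missing factors act at promoters. They are the 250 bases before the RefSeq start site on GRCm38.p6, 5′ to 3′ on the strand of the gene, with the core letters of the Ikaros family motif, TGGGAA, in capitals. The Tspan2 stretch is chr3:102734520-102734769 on the plus strand, that of Cd9 chr6:125494761-125495010 on the minus strand and that of Cd81 chr7:143052500-143052749 on the plus strand.
Tspan2: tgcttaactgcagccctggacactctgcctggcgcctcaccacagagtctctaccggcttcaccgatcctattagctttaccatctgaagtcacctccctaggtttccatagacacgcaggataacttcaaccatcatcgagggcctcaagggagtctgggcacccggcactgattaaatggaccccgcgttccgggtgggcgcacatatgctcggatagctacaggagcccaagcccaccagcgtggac
Cd9: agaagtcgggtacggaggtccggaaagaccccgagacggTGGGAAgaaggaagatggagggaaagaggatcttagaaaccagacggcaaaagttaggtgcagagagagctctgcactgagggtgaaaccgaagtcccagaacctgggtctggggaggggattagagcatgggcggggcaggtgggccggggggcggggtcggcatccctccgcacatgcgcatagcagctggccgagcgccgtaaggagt
Cd81: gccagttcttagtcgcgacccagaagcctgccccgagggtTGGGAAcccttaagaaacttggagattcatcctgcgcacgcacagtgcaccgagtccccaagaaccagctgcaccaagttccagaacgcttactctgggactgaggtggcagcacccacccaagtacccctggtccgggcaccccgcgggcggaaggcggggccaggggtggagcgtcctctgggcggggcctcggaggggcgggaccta
In Cd9 the TGGGAA letters begin at position -211 and in Cd81 at position -210 from the start site, and the Tspan2 stretch, printed all in lower case, holds neither these letters nor the octamer. A second annotated Tspan2 start site was searched as well, without a match. Both motifs were searched on both strands in windows of 250 bases before to 50 bases after each start site. The octamer ATGCAAAT was found in 0 of the 13 windows of the 8 genes and in 1.74% of all 32851 mouse windows. TGGGAA was found in 5 of the 13 windows, 38.5%, and in 25.6% of all windows. These matches describe the letters of the windows and nothing was measured at these sites here. The octamer sites that the paper reports for the λ5 gene lie farther upstream than these windows reach, so the search could not find such sites.

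Tspan2 mRNA followed the same order of genotypes on all 3 of its probe sets: lowest in WT, then Aiolos-/- cells, then OBF-1-/- cells, and highest in double-deficient cells. Probe set 1424568_at, the brightest of them, gave 85.7 and 86.9 units in WT, 142.6 and 115.8 in Aiolos-/- cells, 233.4 and 181.0 in OBF-1-/- cells, and 405.0 and 360.6 in double-deficient cells. Probe set 1424567_at gave 41.7 and 43.0, 82.8 and 78.1, 132.6 and 84.7, and 315.1 and 261.6 units in the same order. On 1432417_a_at the values were 65.6 and 63.0, 76.1 and 71.7, 89.1 and 78.6, and 130.1 and 118.7 units. No array of 1 genotype overlapped with those of another on any of the 3 probe sets, which is a weak criterion with 2 arrays each. The share of all probe sets that separate in this way is not given here. The single mutants came closest to each other on 1424567_at, where the higher Aiolos array had 82.8 and the lower OBF-1 array 84.7 units, and the OBF-1 arrays stood apart there around a mean of 108.7 ± 33.9 units (SD, n = 2).

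**Figure D1:**
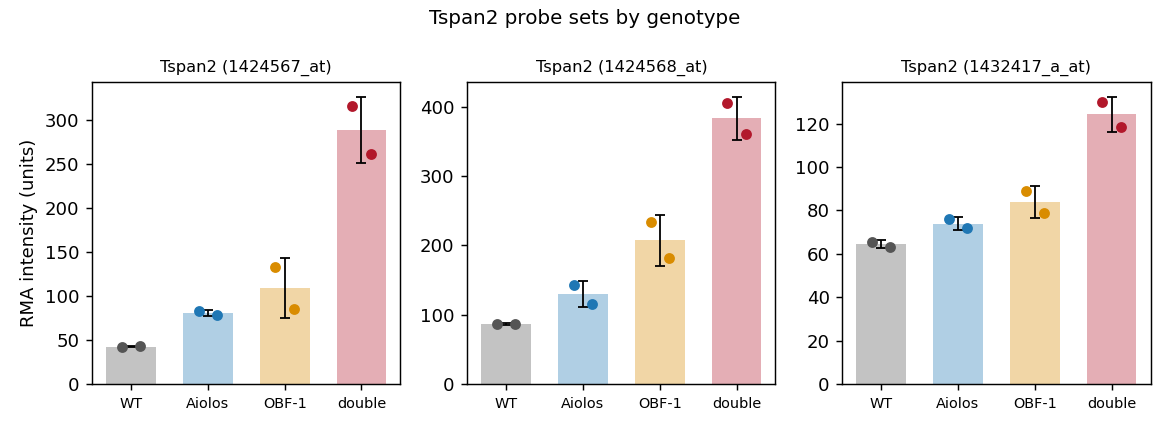
Intensity of the 3 Tspan2 probe sets in linear RMA units on the y axis, by genotype on the x axis. Points are arrays, bars are means and error bars are the SD of 2 arrays. On each probe set the double-deficient arrays lie above all others, and on 1424568_at they reach 405.0 and 360.6 units against 85.7 and 86.9 in WT.

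Since Tspan2 was selected on the difference between double-deficient cells and WT, its differences in every comparison that shares these arrays are a description without a test. The ratio of the double-deficient mean to the WT mean was 6.8 on 1424567_at, 4.44 on 1424568_at and 1.93 on 1432417_a_at. For OBF-1-/- cells the ratios were 2.56, 2.40 and 1.30, and for Aiolos-/- cells 1.9, 1.5 and 1.15. In double-deficient cells the 3 log2 differences held ranks 5, 15 and 150 from the top among 22626 probe sets, and in OBF-1-/- cells ranks 6, 7 and 424. The probe sets thus differed in the size of the difference but not in the order of genotypes. Over the 8 arrays their log2 values correlated pairwise with an r of 0.978 to 0.987, on arrays that share 4 genotype means.

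On the arrays for which Tspan2 was selected, its level without both factors exceeded the sum of the single differences in units, which is again a description without a test. The double-deficient mean exceeded the WT mean plus both single differences by 142 units on 1424567_at, 133 units on 1424568_at and 30.9 units on 1432417_a_at. On the log2 scale, on which additive means multiplied folds, the excess was 0.51 (standard error 0.24), 0.32 (standard error 0.19) and 0.37 (standard error 0.14). This interaction passed on none of the 3 probe sets, nor on gene means (limma adjusted p = 0.353). It includes the arrays on which Tspan2 was selected, so the p-value too is part of the description. An additive shift between the stations cancels in this quantity on the log2 scale.

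The means of the single mutants share no array with the selecting contrast, so Tspan2 was tested between them. The spread in the main fit was still estimated on all 8 arrays, the selecting ones included. The single mutants were also processed on different stations, so station and genotype cannot be told apart here. Log2 Tspan2 was lower in Aiolos-/- than in OBF-1-/- cells, with a difference of -0.68 on 1424568_at (95% interval -0.97 to -0.38, limma adjusted p = 0.0195), a 1.60-fold higher level in the latter. With only the arrays of these genotypes in the fit, this difference did not pass (limma adjusted p = 0.0557). The differences on the other probe sets, -0.40 (95% interval -0.77 to -0.03, limma adjusted p = 0.296) and -0.18 (95% interval -0.40 to 0.04, limma adjusted p = 0.452), did not pass. In this comparison 2 of the 16 member probe sets passed, the other being that of Cd9, against 2.77% of all probe sets. The Tspan2 call did not pass without OBF-1 replicate 1 (adjusted p = 0.145) or without Aiolos replicate 2 (adjusted p = 0.171), and it did not pass with 32 units added before the log (adjusted p = 0.0751). Without OBF-1 replicate 2 the difference on 1424567_at was -0.72 and passed (adjusted p = 0.0286).

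The genes whose log2 values followed those of 1424568_at most closely over the 8 arrays were sought among 176 genes with 1 probe set each, a genotype mean of at least 100 units and a range of genotype means of at least 1 on the log2 scale. Atp1b3, a beta subunit of the sodium and potassium pump, came first with a Pearson r of 0.994. It measured 1334 ± 21.7 units in WT, 1590 ± 14.7 in Aiolos-/- cells, 2047 ± 216 in OBF-1-/- cells and 2916 ± 206 in double-deficient cells (SD, n = 2). Fam110a (r = 0.985), Srgap3 (r = 0.977), which encodes a GTPase activating protein, Spata13 (r = 0.977), which encodes a guanine nucleotide exchange factor, and Pip4p2 (r = 0.970), a phosphoinositide phosphatase, followed. All 5 had their lowest mean in WT and their highest in double-deficient cells, as the choice by likeness to Tspan2 favours.

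Cd9 rose without OBF-1, both with and without Aiolos. Its probe set 1416066_at gave 102.0 and 101.1 units in WT, 118.6 and 105.7 in Aiolos-/- cells, 165.5 and 176.5 in OBF-1-/- cells, and 154.0 and 151.6 in double-deficient cells. Both genotypes that lack OBF-1 lay above both that keep it. Unlike Tspan2, Cd9 had its highest mean in OBF-1-/- cells.

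The rise of Cd9 in OBF-1-/- cells against WT was 0.75 on the log2 scale (standard error 0.09, 1.68-fold, limma adjusted p = 0.00112), and it was the 1 call among the 13 member probe sets other than those of Tspan2, where 2.09% of all probe sets passed. In double-deficient cells against Aiolos-/- cells, a comparison on other arrays, Cd9 rose by 0.45 (standard error 0.09, 1.36-fold, limma adjusted p = 0.0244), again the 1 call of 13, where 2.95% of all probe sets passed. Both comparisons lie within a station. Between the single mutants Cd9 was lower without Aiolos than without OBF-1, with a log2 difference of -0.61 (standard error 0.09, limma adjusted p = 0.00434). In the order of Cd9 levels, 2 pairs of neighbouring genotypes did not pass: Aiolos against WT gave 0.14 (95% interval -0.06 to 0.35, limma adjusted p = 0.437) and double-deficient against OBF-1-/- cells gave -0.16 (95% interval -0.37 to 0.04, limma adjusted p = 0.462). The interaction of the deletions was -0.30 (95% interval -0.59 to -0.01), which did not pass (limma adjusted p = 0.404). The call against Aiolos-/- cells was lost without Aiolos replicate 2 (adjusted p = 0.231), double-deficient replicate 1 (adjusted p = 0.0972) or double-deficient replicate 2 (adjusted p = 0.108), and that between the single mutants without OBF-1 replicate 2 (adjusted p = 0.0518) or Aiolos replicate 2 (adjusted p = 0.0582).

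Cd9 is also made by cells other than pre-B cells, and the RNA was that of a sorted population, in which fewer cells of a type and less RNA per cell cannot be told apart. The summed level of 10 markers of granulocytes and monocytes was 22190 to 22320 units on the WT arrays, 25230 to 26020 in Aiolos-/- cells, 27220 to 30750 in OBF-1-/- cells and 27550 to 28050 in double-deficient cells, and 4 of the 10 rose in OBF-1-/- cells and 7 in double-deficient cells, where 2.09% and 8.57% of all probe sets passed. S100a9 and Ngp were among the brightest of these, at 5943 to 7344 and 4244 to 6655 units over the 8 arrays, and Itgam was the 1 with no genotype mean of 100 units. The sum of 4 plasma cell markers was 1235 to 1260 in WT, 1274 to 1428 in Aiolos-/- cells, 1555 to 1655 in OBF-1-/- cells and 1736 to 1829 units in double-deficient cells. Sdc1 (CD138) was the 1 of these that rose in OBF-1-/- cells, and Prdm1 stayed at 53.1 to 69.7 units. The sum of 5 measured megakaryocyte markers was 328.5 to 341.1 in WT, 338.0 to 381.1 in OBF-1-/- cells, 380.4 to 396.3 in Aiolos-/- cells and 337.0 to 372.8 units in double-deficient cells. No stroma marker of 5 reached 100 units in any genotype, and 1 of 5 T cell markers did. At most 1 of 4 measured markers of basophils and mast cells did. Vcam1, a stroma marker, had means of 32.6 units in WT and 32.9 in Aiolos-/- cells on a probe set. Like Cd9 it lay higher without OBF-1, at 75.5 in OBF-1-/- and 74.7 in double-deficient cells. It passed against WT in both (limma adjusted p = 0.038 and 0.022). Another Vcam1 probe set passed in double-deficient cells only (limma adjusted p = 0.032). Lat, a T cell marker, passed against WT in Aiolos-/- (limma adjusted p = 0.0475) and double-deficient cells (0.0016). The 3 measured erythroid markers summed to 348.8 to 352.2 units in WT, 351.7 to 468.5 in Aiolos-/- cells, 430.5 to 576.1 in OBF-1-/- cells and 394.4 to 486.7 in double-deficient cells. Klf1, an erythroid transcription factor, had 104.8 and 105.4 units in WT, 124.5 and 148.4 in Aiolos-/- cells, 164.7 and 231.1 in OBF-1-/- cells and 179.1 and 159.4 in double-deficient cells, so it lay higher in both genotypes without OBF-1, as Cd9 did. Epor also had higher means in these 2 genotypes, 126.8 units in OBF-1-/- and 122.3 in double-deficient cells against 100.9 in WT and 119.7 in Aiolos-/- cells. Its arrays overlapped between Aiolos-/- (109.1 and 130.4) and double-deficient cells (131.7 and 112.8). Alas2 had means of 178.6 units in OBF-1-/- cells and 144.6 in WT, but 149.0 in double-deficient and 153.9 in Aiolos-/- cells. Neither Epor nor Alas2 passed against WT in the genotypes without OBF-1. The sum of the 7 pre-B cell markers was 26420 to 27140 in WT, 24520 to 25490 in Aiolos-/- cells, 21050 to 21670 in OBF-1-/- cells and 18720 to 18790 units in double-deficient cells. Vpreb3 made up most of this difference, with means of 5909 units in WT, 1152 in OBF-1-/- cells and 1798 in double-deficient cells, beside Cd79b with 6213, 4454 and 3553. Rag1 (3041 units in WT and 3042 in OBF-1-/- cells), Ptprc (2149 and 2141) and Cd79a (7936 and 8859) had similar or higher means in OBF-1-/- cells, and Il2ra was higher (420.7 and 636.8). In double-deficient cells Rag1 (2674), Ptprc (1907) and Cd79a (7382) had lower means than in WT, without passing, and Il2ra was higher (664.2). Ebf1 on its brightest probe set had 1111 units in WT, 1074 in OBF-1-/- cells, 743.7 in Aiolos-/- cells and 779.1 in double-deficient cells. It passed against WT in the last 2, while its other probe sets did not. The part of these cells in the values of Cd9 and Tspan2 was not tested.

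Cd81, the partner of the complement receptor, rose in double-deficient cells against WT. Its probe set 1416330_at gave 438.1 and 441.8 units in WT, 485.7 and 482.1 in Aiolos-/- cells, 518.4 and 495.3 in OBF-1-/- cells, and 580.9 and 601.9 in double-deficient cells. The order of genotypes was that of Tspan2, but over a narrower range. The log2 difference in double-deficient cells was 0.43 (standard error 0.09, 1.34-fold, limma adjusted p = 0.00984), while 0.20 in OBF-1-/- cells (limma adjusted p = 0.337) and 0.14 in Aiolos-/- cells (limma adjusted p = 0.412) did not pass. Its interaction was 0.09 (95% interval -0.18 to 0.35, limma adjusted p = 0.807), so the double-deficient level was not shown to differ from the multiplied single folds. The call was lost without WT replicate 1 (adjusted p = 0.06), WT replicate 2 (adjusted p = 0.0554) or double-deficient replicate 2 (adjusted p = 0.0501).

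In double-deficient cells against WT, 3 of the 13 probe sets other than those of Tspan2 rose and none fell, those of Cd9, Cd81 and 1 of Cd151, where 8.57% of all probe sets passed. Cd9 rose by 0.59 on the log2 scale (standard error 0.09, 1.5-fold, limma adjusted p = 0.00203). The median log2 difference of the 13 was 0.10, beside 0.01 over all probe sets. In Aiolos-/- cells against WT, 0 of the 13 passed in the limma fit, where 1.84% of all probe sets did. In double-deficient against OBF-1-/- cells 0 of 13 passed, where 2.63% of all did, and 0 of 13 passed for the interaction, where 0.186% of all did. At an unadjusted p under 0.05 these counts would be 0 for Aiolos-/- cells against WT, 1 for double-deficient cells against OBF-1 (Cd81) and 1 for the interaction (Cd9). Of all 22626 probe sets, 4261, 3403 and 2677 lay under it in the same comparisons, so these counts do not set the members apart.

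**Figure D2:**
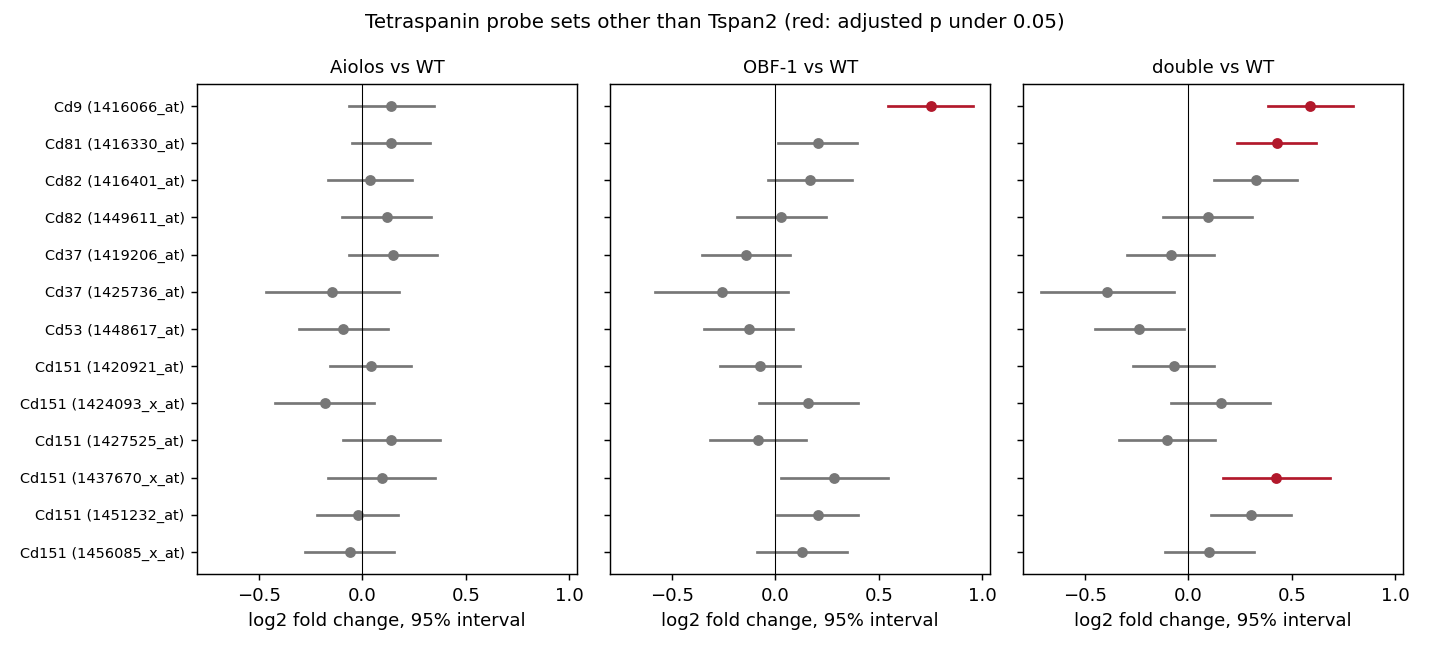
Log2 fold change against WT on the x axis of each panel, with its 95% interval from limma, for the 13 probe sets other than those of Tspan2, in Aiolos-/- cells, OBF-1-/- cells and double-deficient cells. Red marks an adjusted p under 0.05. Cd9 is the 1 red probe set in OBF-1-/- cells at 0.75, and Cd9, Cd81 and 1 probe set of Cd151 are red in double-deficient cells.

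The 6 probe sets of Cd151, the partner of laminin-binding integrins, differed in the sign of their change. On 1437670_x_at, the one that passed, Cd151 gave 124.5 and 144.6 units in WT, 147.7 and 138.7 in Aiolos-/- cells, 146.8 and 182.4 in OBF-1-/- cells, and 176.8 and 184.0 in double-deficient cells, a log2 difference of 0.43 in double-deficient cells (standard error 0.12, limma adjusted p = 0.0452). The _x_at suffix marks this probe set, like 1424093_x_at and 1456085_x_at, as one whose probes may hybridize to other transcripts too. The call was lost in 6 of the leave-one-out fits: adjusted p was 0.258 and 0.0633 without WT replicates 1 and 2, 0.0617 without Aiolos-/- replicate 1 and also without replicate 2, and 0.137 and 0.159 without double-deficient replicates 1 and 2. It was also lost with quantile normalization (0.07), centring on the array median (0.0619) and 32 units added before the log (0.0759). The probe set 1451232_at gave 0.30 (limma adjusted p = 0.0588), and 1427525_at gave -0.10 (limma adjusted p = 0.65). Probe set 1420921_at stayed at 18.5 to 21.1 units on all arrays and was the 1 member probe set with no genotype mean of 100 units. The mean over the 6 gave a log2 difference of 0.14 for Cd151 in double-deficient cells (standard error 0.08, limma adjusted p = 0.344 on gene means).

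Cd82 lay at the threshold in double-deficient cells. Probe set 1416401_at gave 550.1 and 526.2 units in WT, 524.5 and 581.1 in Aiolos-/- cells, 595.5 and 612.9 in OBF-1-/- cells, and 685.3 and 663.9 in double-deficient cells. The double-deficient arrays lay above all others, with a log2 difference of 0.33 against WT (95% interval 0.12 to 0.53, limma adjusted p = 0.05, just above the threshold before rounding). It passed with quantile normalization (adjusted p = 0.0264), a filter on low values (0.0249), 32 units added before the log (0.0212) and a trend and robust fit (0.0269). The second Cd82 probe set, 1449611_at, had overlapping genotypes at 255.0 to 304.7 units and a log2 difference of 0.09 (limma adjusted p = 0.66).

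The leukocyte tetraspanins Cd37 and Cd53 had negative log2 differences in double-deficient cells, none of which passed. Cd37 on 1419206_at gave 3471 and 3597 units in WT, 3834 and 3996 in Aiolos-/- cells, 3175 and 3228 in OBF-1-/- cells, and 3571 and 3101 in double-deficient cells. The Aiolos arrays were the highest and the double-deficient arrays overlapped with both WT and OBF-1 arrays, at a log2 difference of -0.09 (95% interval -0.30 to 0.12, limma adjusted p = 0.683) in double-deficient cells. The other Cd37 probe set, 1425736_at, gave -0.39 (95% interval -0.72 to -0.07, limma adjusted p = 0.141), with WT arrays at 1207 and 927.8 units and double-deficient arrays at 735.0 and 883.3. Cd53 gave 1819 and 1969 units in WT and 1578 and 1634 in double-deficient cells, with both single mutants between 1623 and 1842, a log2 difference of -0.24 (95% interval -0.45 to -0.02, limma adjusted p = 0.189).

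**Figure D3:**
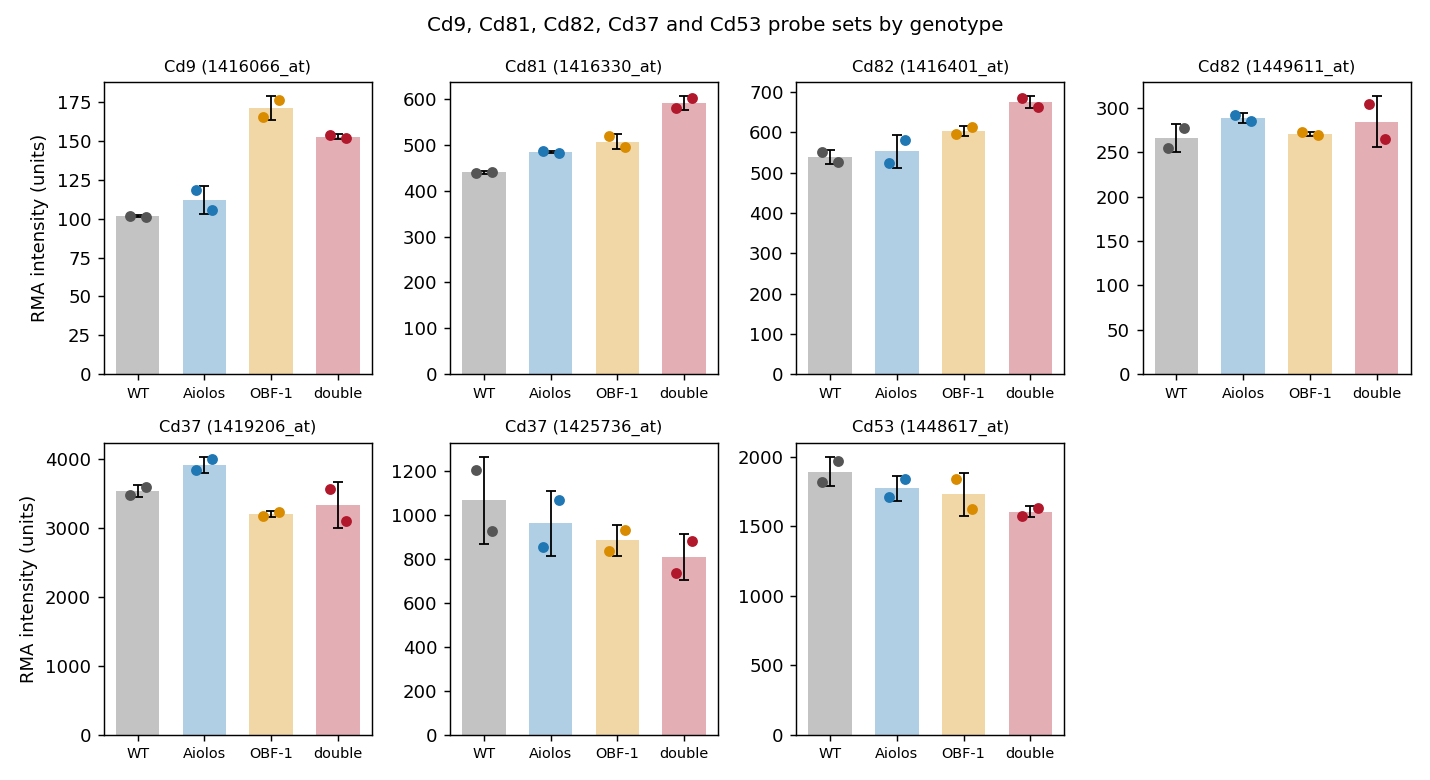
Intensity of the Cd9, Cd81, Cd82, Cd37 and Cd53 probe sets in linear RMA units on the y axis, by genotype on the x axis. Points are arrays, bars are means and error bars are the SD of 2 arrays. Cd9 is at 151.6 to 176.5 units on the arrays without OBF-1 and at 101.1 to 118.6 on those with it, while Cd37 and Cd53 overlap between several genotypes.

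Loss of OBF-1 could be set side by side in the presence and absence of Aiolos, since OBF-1-/- against WT and double-deficient against Aiolos-/- share no array and each lies within a station. Tspan2, selected on its level in double-deficient cells, gave log2 differences of 1.25 and 1.57 on 1424568_at, 1.32 and 1.84 on 1424567_at, and 0.38 and 0.75 on 1432417_a_at in these comparisons. Cd9 gave 0.75 and 0.45, Cd81 0.20 and 0.29, Cd82 on 1416401_at 0.17 and 0.29, and Cd53 -0.13 and -0.15 (those of Cd81, Cd82 and Cd53 passed in neither). The median over the 13 probe sets other than those of Tspan2 was 0.13 with Aiolos present and 0.16 in its absence, beside 0.02 and -0.02 over all probe sets.

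**Figure D4:**
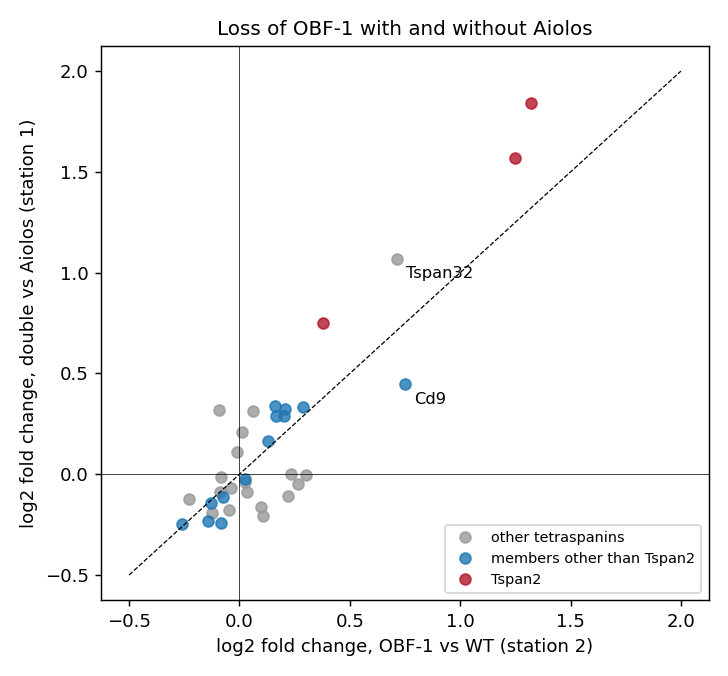
Log2 fold change of OBF-1 against WT on the x axis and of double-deficient cells against Aiolos on the y axis, which share no array. Red points are the 3 Tspan2 probe sets, blue points the 13 other member probe sets and grey points 1 probe set for each of 19 other tetraspanins, and the dashed line marks equal changes. Tspan2, Tspan32 and Cd9 lie away from the remaining points, and Tspan2 and Tspan32 lie above the line.

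Of 23 other tetraspanin genes listed, 19 were measured, each by its brightest probe set. In double-deficient cells against WT, 5 of the 19 rose and none fell, where 8.57% of all probe sets passed, with a median log2 difference of 0.15 over the list, beside 0.01 over all probe sets. Tspan32, a tetraspanin of blood cells, was the 1 that rose in OBF-1-/- cells (log2 difference 0.72, limma adjusted p = 0.0235) and also the 1 that rose in double-deficient cells against Aiolos (1.07, limma adjusted p = 0.00128). It gave 66.0 and 62.8 units in WT, 59.9 and 48.2 in Aiolos-/- cells, 91.8 and 121.7 in OBF-1-/- cells, and 104.6 and 121.0 in double-deficient cells. As with Cd9, both genotypes without OBF-1 lay above both that keep it. The Tspan32 call against WT was lost without WT replicate 1 (adjusted p = 0.127), WT replicate 2 (0.153) or OBF-1 replicate 2 (0.194), and with 32 units added before the log (0.0999).

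Tspan31 differed between the genotypes with and without Aiolos. It gave 69.7 and 77.4 units in WT and 70.0 and 67.8 in OBF-1-/- cells, against 202.2 and 154.6 in Aiolos-/- cells and 202.5 and 239.4 in double-deficient cells. The log2 difference was 1.27 in Aiolos-/- cells (standard error 0.13, limma adjusted p = 0.000917) and 1.58 in double-deficient cells (limma adjusted p = 1.36e-05). A second Tspan31 probe set, 1430029_a_at, gave 0.78 in Aiolos-/- cells (limma adjusted p = 0.00332), while 1455853_x_at gave -0.03 (limma adjusted p = 0.875). Tspan3, Tspan5 and Tspan14 passed in double-deficient cells against WT as well, with log2 differences of 0.40 (adjusted p = 0.0316), 0.55 (0.00296) and 0.51 (0.00434) from limma. Tspan5 and Tspan14 belong to the tetraspanins that escort the protease ADAM10. Others of that group, Tspan10 (0.15), Tspan15 (-0.08), Tspan17 (0.07) and Tspan33 (-0.07), did not pass on their brightest probe sets. Adam10 itself gave -0.23 on its brightest probe set (limma adjusted p = 0.222). Against OBF-1-/- cells Tspan31, Tspan3, Tspan5 and Tspan14 rose in double-deficient cells, which makes 4 of 19, where 2.63% of all probe sets passed. These calls of Tspan31, Tspan3, Tspan5 and Tspan14 are all between stations, so station and loss of Aiolos cannot be told apart in them. Within station 1, the difference between double-deficient and Aiolos-/- cells passed for none of the 4 (limma adjusted p = 0.103 to 0.964). The Tspan3 call against WT was lost without WT replicate 1 (adjusted p = 0.155), WT replicate 2 (0.103) or double-deficient replicate 1 (0.223). Against OBF-1-/- cells, that of Tspan14 was lost without any 1 of the 4 arrays compared (adjusted p = 0.0593 to 0.172), that of Tspan3 without OBF-1 replicate 1 (0.14), OBF-1 replicate 2 (0.118) or double-deficient replicate 1 (0.187), and that of Tspan5 without OBF-1 replicate 2 (0.0975) or double-deficient replicate 1 (0.0612).

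**Figure D5:**
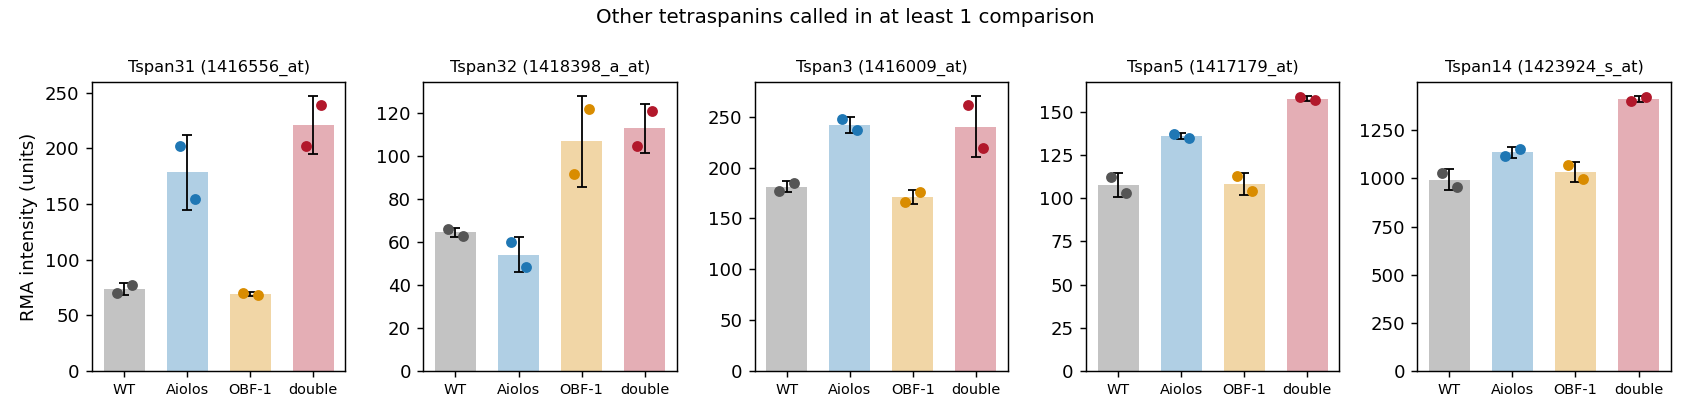
Intensity in linear RMA units on the y axis, by genotype on the x axis, of the 5 other tetraspanins that passed in at least 1 comparison. Points are arrays, bars are means and error bars are the SD of 2 arrays. Tspan31 is at 154.6 to 239.4 units on the arrays without Aiolos and at 67.8 to 77.4 on those with it, and Tspan32 is at 91.8 to 121.7 on the arrays without OBF-1 and at 48.2 to 66.0 on those with it.

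Between the single mutants, 2 of the 19 were higher in Aiolos-/- cells, Tspan31 and Tspan3, and 1 was lower, Tspan32 (log2 difference -0.98, limma adjusted p = 0.0034), where 2.77% of all probe sets passed. The Tspan3 difference of 0.50 (limma adjusted p = 0.0241) was lost without any 1 of the 4 arrays compared (adjusted p = 0.0932 to 0.158).

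Of 16 genes listed as partners of tetraspanins, 15 were measured. In double-deficient cells against WT 1 of the 15 passed, where 8.57% of all probe sets did, so the list holds no larger share of calls than the array. Itgb1, the beta chain of many integrins, was that call, with 113.2 and 96.2 units in WT and 184.9 and 148.0 in double-deficient cells, a log2 difference of 0.67 (standard error 0.13, limma adjusted p = 0.00709). A second Itgb1 probe set gave 0.69 (limma adjusted p = 0.012). The first call was lost without WT replicate 2 (adjusted p = 0.0798) or double-deficient replicate 1 (0.0772). Itga6, an integrin alpha chain of laminin receptors, was lower in Aiolos-/- than in OBF-1-/- cells, with a log2 difference of -0.49 (limma adjusted p = 0.0268), which was lost without any 1 of those 4 arrays (adjusted p = 0.0703 to 0.178). Cr2, which encodes the complement receptor CD21, passed in double-deficient cells against OBF-1 with -0.44 (limma adjusted p = 0.0263) at 33.3 to 45.9 units in these genotypes, and it was lost without any 1 of the 4 arrays (adjusted p = 0.0867 to 0.156). Igsf8, an immunoglobulin superfamily partner of CD9 and CD81, gave 0.03 in OBF-1-/- cells (limma adjusted p = 0.953) and -0.19 in double-deficient cells (limma adjusted p = 0.431).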

How the data were processed

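RNA was amplified and labelled with a 3' IVT protocol and hybridized to MOE430A arrays, 2 per genotype. The values are intensities that the authors computed with RMA (background correction, quantile normalization and a summary over the probes of a probe set), per the labels, and deposited on a linear scale. The array scan records were used for the fluidics station only. Probe sets were named from the platform annotation (20393 with 1 symbol, 691 with several, 1606 with none, controls included). After 64 controls were left out, limma 3.58.1 (R 4.3.3) was run on log2 values of 22626 probe sets, with a mean for each genotype and empirical Bayes variances (prior degrees of freedom 7.69, residual 4). Probe sets passed when their p, adjusted over all of them by Benjamini-Hochberg, lay under 0.05. The number of arrays limits the precision.

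The members and gene lists were chosen with earlier results of these data known. Named were all members, each other tetraspanin or partner with a call (up to 8 per list, brightest probe set), the 5 genes most like Tspan2, and Pou2af1. Adam10, Igsf8, Tspan10, Tspan15, Tspan17, Tspan33 and markers were named outside this rule, after their values were seen. Replicate numbers did not pair the arrays: the deviations of arrays with the same number correlated with an r of -0.09 to 0.10. Across probe sets, r was 0.9961 to 0.9965 within a genotype. On simulated data with 200 of 22626 probe sets changed, for double-deficient cells against WT, the fit recovered 71.2% of those set to 0.5 and 100% of those set to 1 on the log2 scale, and 7.38% of calls were false. In the data 1938 probe sets passed in this comparison, so these shares hold for the simulated setting only. Promoter windows are those of RefSeq on GRCm38.p6. Alternatives were another normalization and centring, a filter, an offset, other variance models, a replicate block, only the genotypes compared, gene means and leaving out each array.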

Additional observations from a re-analysis of the deposited data

How the results depend on the processing

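Counts here are over the 13 member probe sets other than those of Tspan2, and over all 16 between the single mutants. Without moderation of variances most calls were lost: they went from 1 to 0 for OBF-1 against WT, from 3 to 1 for double-deficient cells against WT, from 1 to 0 for double-deficient cells against Aiolos and from 2 to 0 between the single mutants. Over all 22626 probe sets the calls fell there as well, in the same order from 472 to 9, 1938 to 359, 667 to 22 and 626 to 13. There Cd9 had an adjusted p of 0.104, 0.0538, 0.148 and 0.139 from limma, and Pou2af1 0.0892 in OBF-1-/- cells, at unchanged log2 differences. The filter on low values gave 5 for double-deficient cells against WT and 2 against Aiolos, where 1860 and 640 of the 9768 probe sets kept passed. For OBF-1 against WT 438 of the 9768 passed. The offset of 32 units gave 3 for double-deficient cells against Aiolos and 1 between the single mutants, where 530 and 516 of all probe sets passed. With only the genotypes compared, the member counts were 0 (Cd9 0.0509) and 1 (Tspan2 0.0557), where 594 and 561 of all passed. With quantile normalization 3 were called in double-deficient cells against WT, with Cd82 (1416401_at) in place of Cd151. Leaving out each array in turn gave 1 to 3 for double-deficient cells against WT, 0 to 1 against Aiolos and 0 to 2 between the single mutants. With gene means, 1 member gene in place of 2 was called between the single mutants, as Tspan2 was lost (limma adjusted p = 0.0944). The replicate block left 1 call for OBF-1 against WT, 3 for double-deficient cells against WT, 1 against Aiolos and 2 between the single mutants, and changed no other count of member probe sets. Over 116 results of single probe sets and 1835 alternatives, 1743 kept their side of the threshold, 82 lost and 10 gained a call, and no called value changed sign. The alternatives for other tetraspanins, partners and Pou2af1 were chosen after seeing the data. Probe sets near 20 units, such as 1420921_at of Cd151, give little signal over background.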
